A study of Mus musculus with 20 samples.

Results

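The 10 genes described here act on the surface of lipid droplets: the CIDE genes Cidea, Cideb and Cidec, the perilipin genes Plin2, Plin3, Plin4 and Plin5, the triglyceride lipase gene Pnpla2, and the genes of its inhibitors, G0s2 and Hilpda. They were found by gene symbol among 22206 probe sets for 19505 named genes, and each of the 10 had 1 probe set. Every one was kept, whatever its brightness. Messenger RNA was measured in the livers of 20 mice on 1 Affymetrix array per liver, with 5 mice described as biological replicates in each group.

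The groups were fasted Mcl1KO, fed Mcl1KO, fasted WT and fed WT, where Mcl1KO stands for the deposited genotype Mcl1(L-/-). Mcl1 encodes MCL1, a mitochondrial protein that blocks apoptosis. Mcl1KO mice carried the floxed allele Mcl1(F/F) and were given AAV-LP1-Cre, an adeno-associated virus that carries Cre recombinase, for deletion in the liver; LP1 is a liver promoter. Fasted mice spent 48 h alone in wire-bottom cages without food, and fed mice ate freely; water was always present. Fasting was thus always combined with this housing. The same virus protocol stands on the WT samples, so it is not clear what WT mice received, and effects of the virus or of Cre itself and effects of losing Mcl1 cannot be told apart. The labels give no age, sex or strain.

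Mcl1 signal averaged 6.14 ± 0.25 in fasted Mcl1KO and 7.28 ± 0.09 in fasted WT livers (log2, SD, n = 5 each). In fed mice it averaged 6.09 ± 0.16 in Mcl1KO and 7.43 ± 0.15 in WT. The Mcl1KO and WT livers did not overlap at either feeding state; where the probes lie relative to the deleted part is not known here. Of 8 hepatocyte markers none passed between genotypes. With fasting 2 were higher and 1 lower in Mcl1KO, namely Tat by 0.65, Cps1 by 0.54 and Ttr with a difference of -0.32, and 2 were higher and 0 lower in WT, Tat by 0.69 and Cps1 by 0.47. Of all probe sets, 8.2% were higher and 6.25% lower with fasting in Mcl1KO, and 3.1% higher and 3.68% lower in WT. Between genotypes 4.99% passed in fasted and 0.036% in fed mice. Array medians ranged from 3.35 to 3.47.

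Hepatocytes keep triglyceride in droplets bounded by a phospholipid layer, to which perilipins and CIDE proteins bind. Pnpla2 encodes adipose triglyceride lipase, which removes the first fatty acid from triglyceride; Abhd5 activates it, and G0s2 and Hilpda inhibit it. In a fast, fatty acids leave adipose tissue, reach the liver, are partly stored in droplets and are then released for oxidation and ketone synthesis. Several droplet genes are known targets of PPARα, the nuclear receptor that drives the fasting programme of hepatocytes.

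Promoter windows of the 5 genes that were higher in fasted than in fed Mcl1KO livers are printed below, 1 per gene. Cidec, Plin5 and Hilpda had a second window that is not printed, and for Cidec and Hilpda the printed window held more matches. The printed windows thus do not show all that these genes do and do not share at their start sites. Each window holds 250 bases before and 50 after a RefSeq transcription start, from GRCm38.p6, 5′ to 3′ on the gene's own strand. Capitals mark matches to 4 motifs, searched on both strands. The first is AGGTCANAGGTCA with up to 3 mismatches, the direct repeat bound by PPARα with its partner RXR. The second is the exact hexamer AGGTCA, which can lie inside the first. The third is ACGTG, the core bound by hypoxia-inducible factors, and the last is TGACG, part of the site bound by the cAMP-responsive factor CREB.
Cidec, window 1, chr6:113435711-113436010, minus strand: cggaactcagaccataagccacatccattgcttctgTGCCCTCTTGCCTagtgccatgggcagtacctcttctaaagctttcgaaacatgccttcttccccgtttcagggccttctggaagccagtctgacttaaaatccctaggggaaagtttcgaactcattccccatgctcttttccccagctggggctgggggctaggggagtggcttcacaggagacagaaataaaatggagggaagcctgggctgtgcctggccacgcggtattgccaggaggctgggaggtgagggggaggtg
Plin2, chr4:86670010-86670309, minus strand: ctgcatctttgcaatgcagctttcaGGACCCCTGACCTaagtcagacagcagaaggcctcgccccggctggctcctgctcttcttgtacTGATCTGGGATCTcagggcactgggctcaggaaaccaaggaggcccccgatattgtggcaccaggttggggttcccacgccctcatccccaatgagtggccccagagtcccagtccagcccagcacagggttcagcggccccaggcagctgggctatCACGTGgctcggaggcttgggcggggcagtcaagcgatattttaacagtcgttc
Plin5, window 1, chr17:56117499-56117798, minus strand: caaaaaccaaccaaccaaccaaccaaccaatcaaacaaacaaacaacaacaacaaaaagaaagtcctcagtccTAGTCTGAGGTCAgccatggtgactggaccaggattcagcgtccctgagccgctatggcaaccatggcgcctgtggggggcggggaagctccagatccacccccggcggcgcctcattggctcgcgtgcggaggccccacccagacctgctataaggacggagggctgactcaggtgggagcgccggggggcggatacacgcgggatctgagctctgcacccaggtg
Pnpla2, chr7:141454938-141455237, plus strand: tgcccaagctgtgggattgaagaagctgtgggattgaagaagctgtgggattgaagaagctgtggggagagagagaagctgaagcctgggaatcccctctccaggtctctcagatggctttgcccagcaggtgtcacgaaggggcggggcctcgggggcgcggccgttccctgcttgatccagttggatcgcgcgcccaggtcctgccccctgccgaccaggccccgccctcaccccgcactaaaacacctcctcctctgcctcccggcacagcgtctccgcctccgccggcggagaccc
Hilpda, window 2, chr6:29272376-29272675, plus strand: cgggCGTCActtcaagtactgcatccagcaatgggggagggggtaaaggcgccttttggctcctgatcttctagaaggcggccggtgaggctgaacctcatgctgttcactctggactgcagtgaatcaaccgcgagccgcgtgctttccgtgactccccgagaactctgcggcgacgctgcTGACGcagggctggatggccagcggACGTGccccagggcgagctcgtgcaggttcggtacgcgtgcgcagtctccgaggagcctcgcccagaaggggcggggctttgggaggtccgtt

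Of the 10 genes, 9 had a window in the RefSeq table, and Cidec, Plin5 and Hilpda had 2 each, which makes 12 windows. The direct repeat matched in 7 of the 12 windows, against 24.6% of all 32851 windows of this length in the table. The 7 windows belonged to 6 of the 9 genes, since Plin5 matched in both of its windows. The printed Plin2 window held it at 2 places, the better one with 2 mismatches, 225 bases before the start, and the exact hexamer lay inside that match. The Plin5 matches had 3 mismatches each. The Cidec match also had 3 mismatches, and the other Cidec window and the Pnpla2 window held none of the 4 motifs. The genes with a match also included Cideb, Plin3 and G0s2, which passed no test in these livers, whereas Pnpla2, which passed, had none. The ACGTG core stood in the Plin2 window and in Hilpda window 2, but not in Hilpda window 1, and in 19.6% of all windows. The exact hexamer AGGTCA stood in 3 of the 12 windows and in 16.3% of all windows. TGACG stood in 3 of the 12 windows and in 20.8% of all windows. The 2 Hilpda windows overlap in part, as do the 2 Plin5 windows. A match is a run of letters and no evidence of binding.

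Fasting in Mcl1KO mice raised 5 of the 10 genes and lowered none, by limma at an adjusted p under 0.05 over all 22206 probe sets. Over all probe sets, 8.2% were higher and 6.25% lower in fasted Mcl1KO livers by the same test. The 5 were Cidec, at 25.3-fold, Plin5, at 4.24-fold, Pnpla2, at 4.08-fold, Plin2, at 2.22-fold, and Hilpda, at 2.17-fold. In 4 of the 10 genes, all of these but Hilpda, the fasted and fed livers did not overlap, as in 10.2% of all probe sets. The median log2 difference over the 10 genes was 0.88, and over all probe sets it was -0.002. Because the arrays hold RNA of whole liver, more cells of a type and more RNA per cell cannot be told apart.

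**Figure D1:**
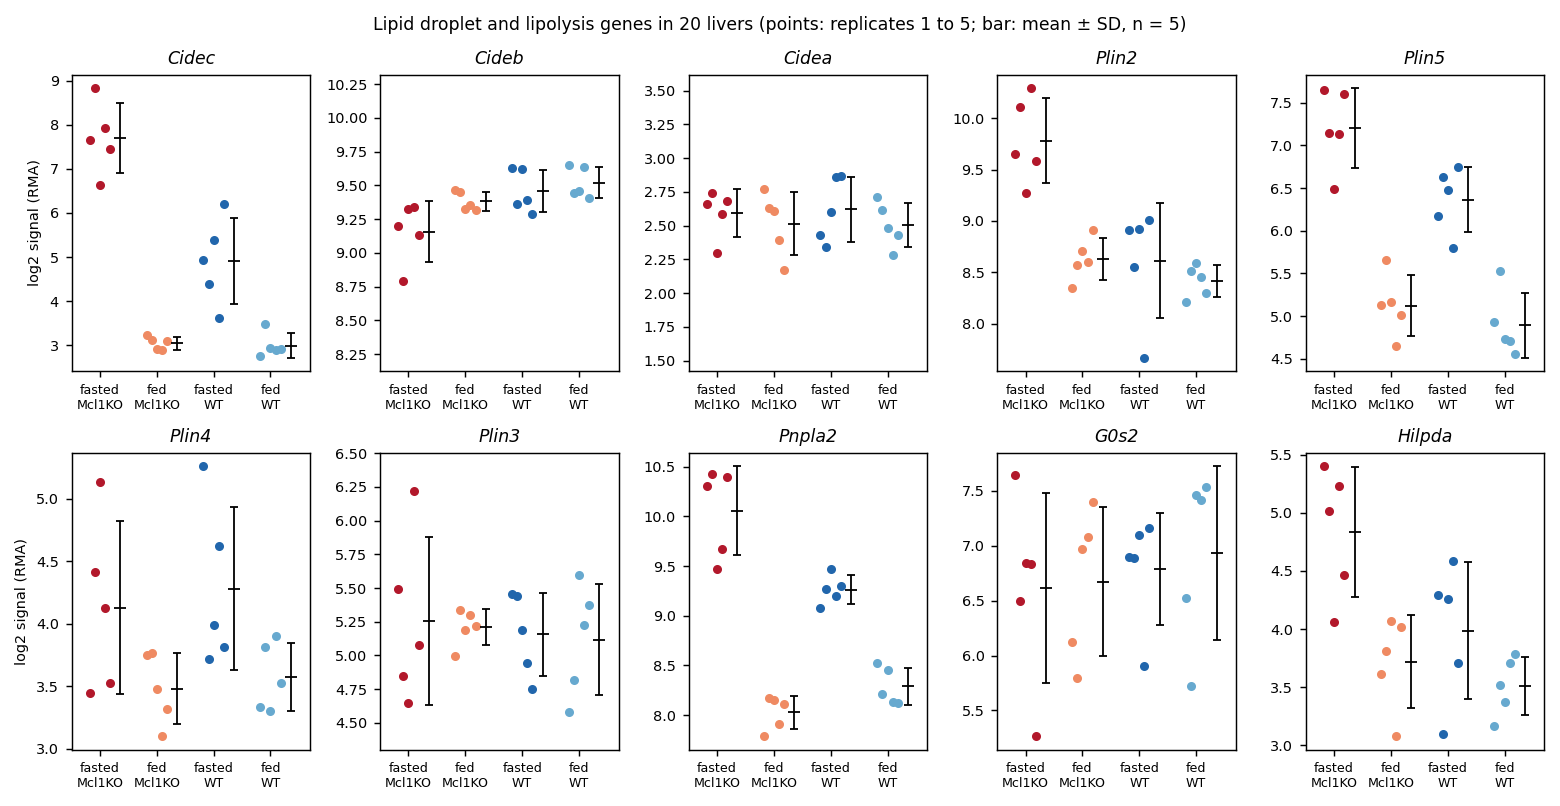
Log2 signal of each of the 10 genes in all 20 livers; the groups run from left to right as fasted Mcl1KO, fed Mcl1KO, fasted WT and fed WT, points are livers and bars are the mean ± SD (n = 5). Cidec lies between 6.64 and 8.84 in fasted Mcl1KO livers and between 2.89 and 3.22 in fed Mcl1KO livers, and G0s2 spreads widely in each group.

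Fasting raised 3 of the 10 genes in WT livers: Cidec, at 3.78-fold, Plin5, at 2.78-fold, and Pnpla2, at 1.97-fold. In this comparison 3.1% of all probe sets were higher and 3.68% lower. These 3 genes also did not overlap between fasted and fed WT livers, as in 7.36% of all probe sets, and none of the 10 was lower. The median log2 difference was 0.34 over the 10 genes and 0.01 over all probe sets. The fasting comparisons in Mcl1KO and in WT livers share no arrays.

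Between genotypes, 4 of the 10 genes were higher in fasted Mcl1KO than in fasted WT livers, namely Cidec, Plin2, Pnpla2 and Plin5, and none was lower. Of all probe sets, 3.32% were higher and 1.67% lower; the higher ones made up 66.5% of those called, 55.0% after a further quantile normalisation and 76.4% after median centring. The first 3 of them did not overlap between the genotypes, as in 3.9% of all probe sets. In fed mice none of the 10 genes passed limma's test, at which 0.036% of all probe sets, or 8, passed, and none of the 10 had an unadjusted p under 0.05, as 6.44% of all probe sets had. The fasting effect itself differed between genotypes, as an interaction, for 1 of the 10 genes, Cidec, and for 0.135% of all probe sets, which is 30. At an unadjusted p under 0.05, 3 of the 10 genes had such an interaction, as had 11.2% of all probe sets. The genotype comparisons use the same arrays as the fasting comparisons.

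**Figure D2:**
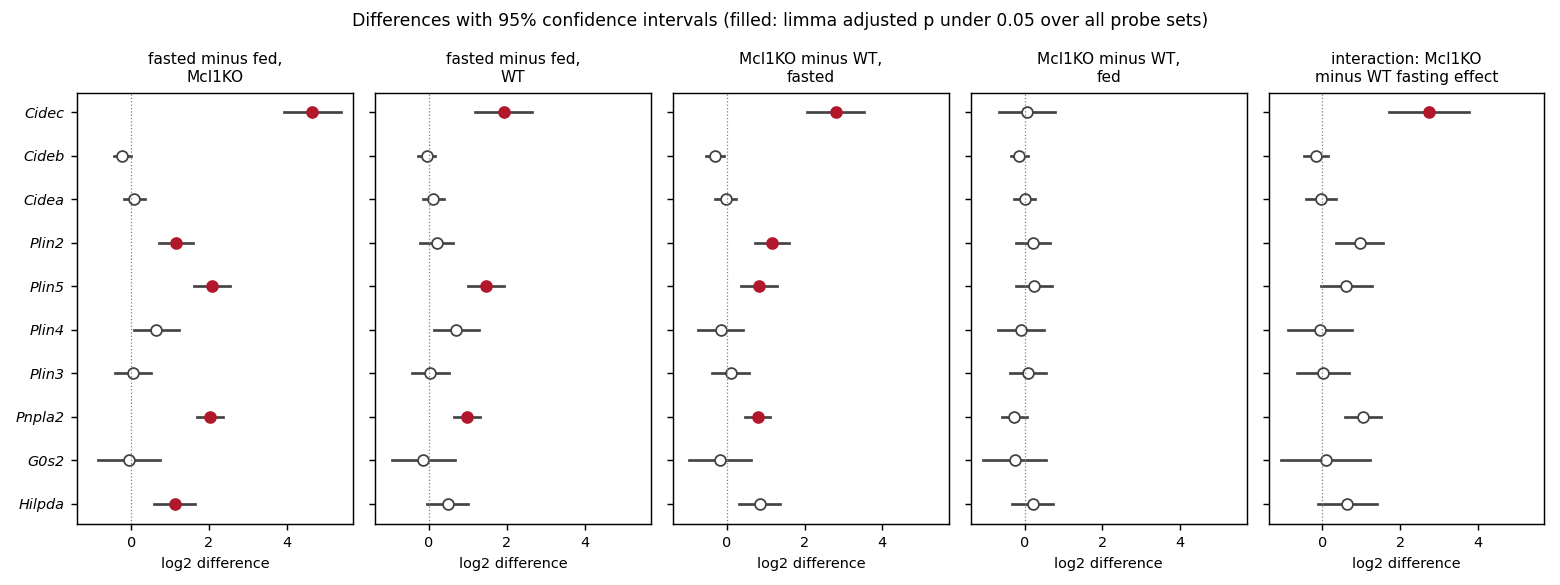
Log2 differences of the 10 genes with 95% confidence intervals, one panel per comparison; filled points have a limma adjusted p under 0.05 over all probe sets. Cidec stands at 4.66 for fasting in Mcl1KO and 1.92 for fasting in WT, and in fed mice the intervals of all 10 genes include 0.

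Cidec, also called Fsp27, encodes a CIDE protein that gathers where droplets touch and moves lipid from the smaller to the larger one. Its log2 signal was 7.65, 8.84, 6.64, 7.93 and 7.46 in replicates 1 to 5 of the fasted Mcl1KO group, against 3.22, 3.11, 2.90, 2.89 and 3.10 in the fed Mcl1KO group. It was 4.94, 4.40, 5.39, 3.61 and 6.19 in fasted WT livers, against 2.75, 3.47, 2.93, 2.89 and 2.92 in fed WT livers. Every fasted Mcl1KO liver lay above every fasted WT liver, and every fasted WT liver above all 10 fed livers. The fed groups lay together. In Mcl1KO mice the fasting difference was 4.66 on the log2 scale (SE 0.35, 95% confidence interval 3.94 to 5.39, adjusted p = 2.47e-09). In WT mice it was 1.92 (1.19 to 2.64, adjusted p = 0.000883). The first exceeded the second by 2.74 (1.72 to 3.77, adjusted p = 0.022), which is a 6.70-fold larger ratio. That call was lost without fasted WT replicate 2 (adjusted p = 0.0501) and with trended, robust variance moderation (adjusted p = 0.0585), while the difference stayed between 2.42 and 3.06 under every alternative. Fasted Mcl1KO exceeded fasted WT livers by 6.95-fold (log2 2.80, adjusted p = 8.44e-05), and the fed groups differed by 0.05 (-0.67 to 0.78). The SD of Cidec was wider after the fast, at 0.79 in fasted Mcl1KO against 0.14 in fed Mcl1KO, and 0.98 in fasted WT against 0.28 in fed WT. In the fed livers Cidec read 2.75 to 3.47, mostly below the array medians of 3.35 to 3.47, and so near the floor. How far this limited the fed SDs, the fed difference and the fold changes was not tested.

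The other CIDE genes passed in no comparison. Cidea, which enlarges droplets in brown fat and in fatty liver, stayed between 2.17 and 2.87 on all 20 arrays, below every array median. Its fasting difference was 0.08 (-0.19 to 0.35) in Mcl1KO and 0.12 (-0.16 to 0.39) in WT; at this brightness a small change may escape the probe set. Cideb, the CIDE gene typical of hepatocytes, whose protein helps load triglyceride onto very low density lipoprotein, was bright in every group. It averaged 9.16 ± 0.22 in fasted Mcl1KO and 9.38 ± 0.07 in fed Mcl1KO livers, and 9.46 ± 0.16 in fasted WT and 9.52 ± 0.12 in fed WT livers (SD, n = 5). The Cideb difference between fasted Mcl1KO and fasted WT livers was -0.30 (-0.52 to -0.08, adjusted p = 0.117), with overlapping groups. Its estimates were negative in every comparison and none passed the test.

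Plin2 encodes the perilipin that coats most droplets of hepatocytes and is degraded when no lipid is at hand. Its log2 signal was 9.66, 10.11, 9.27, 10.29 and 9.58 in replicates 1 to 5 of fasted Mcl1KO, against 8.34, 8.57, 8.71, 8.60 and 8.91 in fed Mcl1KO. In WT it was 8.91, 8.56, 8.92, 7.67 and 9.01 after fasting, against 8.21, 8.52, 8.59, 8.46 and 8.30 in fed mice. All fasted Mcl1KO livers lay above the other 15 livers, whereas fasted and fed WT livers overlapped. Fasting raised Plin2 in Mcl1KO by 1.15 (0.72 to 1.58, adjusted p = 0.000331). The fasting difference in WT was 0.20 (-0.23 to 0.63, adjusted p = 0.718), and 0.44 without fasted WT replicate 4, the lowest liver of its group. Fasted Mcl1KO exceeded fasted WT livers 2.25-fold (log2 1.17, adjusted p = 0.00277). The interaction of 0.95 (0.35 to 1.56) did not pass over all probe sets (adjusted p = 0.185), so that Plin2 was called in one genotype and not in the other is not shown to be a difference between them.

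Plin5 encodes the perilipin of oxidative tissues, which binds Pnpla2 and its activator and ties droplets to mitochondria. Its log2 signal was 7.66, 7.15, 6.49, 7.14 and 7.60 in fasted Mcl1KO, against 5.13, 5.66, 5.17, 4.65 and 5.01 in fed Mcl1KO. In WT it was 6.18, 6.63, 6.48, 5.80 and 6.75 in fasted mice, against 4.93, 5.53, 4.73, 4.71 and 4.56 in fed mice. Fasted livers of each genotype lay above all 10 fed livers, and the fasted groups overlapped through replicate 3 of fasted Mcl1KO. Plin5 rose with fasting by 2.08 in Mcl1KO (1.62 to 2.55, adjusted p = 4.62e-07) and by 1.47 in WT (1.01 to 1.94, adjusted p = 0.000112). The interaction was 0.61 (-0.04 to 1.26, adjusted p = 0.483). Fasted Mcl1KO was 1.79-fold above fasted WT (adjusted p = 0.0304), a call lost without fasted WT replicate 1 or 4 or fasted Mcl1KO replicate 1, 2 or 5 (adjusted p up to 0.093) and with only the compared groups in the fit.

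Plin3 and Plin4 gave no call in any of the 5 comparisons. Plin3, whose protein waits in the cytosol and joins newly formed droplets, differed by 0.05 with fasting in Mcl1KO (-0.42 to 0.52) and by 0.04 in WT (-0.43 to 0.51). Its SD was 0.62 in fasted Mcl1KO and 0.13 in fed Mcl1KO livers, with means of 5.26 and 5.21. Plin4, known mainly from adipocytes and muscle, read 3.44, 4.41, 5.13, 4.12 and 3.52 in fasted Mcl1KO, against 3.75, 3.76, 3.48, 3.10 and 3.32 in fed Mcl1KO. It read 5.26, 3.72, 3.99, 4.62 and 3.82 in fasted WT, against 3.33, 3.81, 3.30, 3.90 and 3.53 in fed WT. In each genotype a few fasted livers were high and the rest lay among the fed livers. The fasting difference of Plin4 was 0.65 in Mcl1KO (0.07 to 1.23, adjusted p = 0.147) and 0.71 in WT (0.12 to 1.29, adjusted p = 0.164). Plin4 and Plin5 are neighbours on mouse chromosome 17, with 0 protein-coding genes between them in RefSeq. Between Plin5 and Plin3 lie 7 protein-coding genes. Of these 3 linked genes only Plin5 passed the test for fasting, in both genotypes.

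Pnpla2, the lipase gene itself, rose with fasting in both genotypes. Its log2 signal was 10.30, 10.43, 9.47, 9.67 and 10.40 in replicates 1 to 5 of fasted Mcl1KO, against 7.79, 8.17, 8.16, 7.91 and 8.11 in fed Mcl1KO. In WT it was 9.08, 9.27, 9.47, 9.20 and 9.30 in fasted mice, against 8.52, 8.21, 8.45, 8.13 and 8.12 in fed mice. Fasted livers of both genotypes lay above all fed livers; fasted Mcl1KO replicate 3 lay at the level of the highest fasted WT liver, and the other 4 above it. Fasting raised Pnpla2 by 2.03 in Mcl1KO (1.70 to 2.36, adjusted p = 4.15e-09) and by 0.98 in WT (0.65 to 1.30, adjusted p = 0.000244). The interaction, 1.05 (0.59 to 1.52), missed the threshold (adjusted p = 0.0543) and passed without fasted Mcl1KO replicate 3 (adjusted p = 0.00375) or 4 (adjusted p = 0.0291). With all arrays it also passed under median centring (adjusted p = 0.0383), trended, robust moderation (0.0344), group weights (0.0400), array weights (0.0380) and when only bright probe sets were kept (0.0462). Fasted Mcl1KO exceeded fasted WT livers 1.73-fold (adjusted p = 0.00557). In fed mice the estimate had the opposite sign, at -0.26 (-0.59 to 0.07, adjusted p = 0.881).

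Of the inhibitors of the lipase, Hilpda passed with fasting in Mcl1KO livers and G0s2 in no comparison. Hilpda, named for its induction by hypoxia, read 5.40, 5.02, 4.06, 5.23 and 4.47 in fasted Mcl1KO, against 3.61, 3.81, 4.07, 3.08 and 4.02 in fed Mcl1KO. In WT it read 4.29, 3.10, 4.26, 4.58 and 3.71 in fasted mice, against 3.17, 3.52, 3.37, 3.71 and 3.78 in fed mice. Only replicate 3 of fasted Mcl1KO reached down to the fed Mcl1KO livers, while the WT groups overlapped broadly. Hilpda rose with fasting in Mcl1KO by 1.12 (0.58 to 1.65, adjusted p = 0.00355). In WT the difference was 0.48 (-0.06 to 1.01, adjusted p = 0.36), and the interaction was 0.64 (-0.12 to 1.39, adjusted p = 0.535). Its excess of 0.85 in fasted Mcl1KO over fasted WT missed the threshold (adjusted p = 0.0596) and passed without fasted Mcl1KO replicate 3 (adjusted p = 0.0112), fasted WT replicate 4 (adjusted p = 0.0395) or fed Mcl1KO replicate 4 (adjusted p = 0.0482). With all arrays it also passed under median centring (adjusted p = 0.0426) and when only bright probe sets were kept (adjusted p = 0.0416).

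G0s2, known as an inhibitor of Pnpla2 in liver and fat, spread widely. It read 7.64, 6.50, 6.84, 6.83 and 5.27 in fasted Mcl1KO, against 6.13, 5.79, 6.97, 7.08 and 7.39 in fed Mcl1KO. It read 6.90, 6.88, 7.10, 5.90 and 7.16 in fasted WT, against 6.52, 5.72, 7.46, 7.42 and 7.53 in fed WT. All 4 groups overlapped, with SDs from 0.51 to 0.86. The G0s2 fasting difference was -0.06 in Mcl1KO (-0.86 to 0.75) and -0.14 in WT (-0.95 to 0.66). With this spread, a true difference anywhere inside these intervals remains compatible with the values.

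The 5 genes that rose in fasted Mcl1KO livers, picked here after their values were seen, often placed the same livers at the ends of a group. Fasted Mcl1KO replicate 3 was the lowest of its 5 livers for 5 of 5 genes. This was not particular to these genes. The same liver was lowest for Cidea, Plin3, Nlrp12, Rab30, Apoa4 and Insig2, and highest for Plin4 and Spg20. It was also highest for Ldah, Mettl7b, Ces1f, Ces1g, Ces3a, Aadac, Mlxipl and Ppara, which were lower in fasted than in fed Mcl1KO livers. The share of all probe sets for which it stood at an end of its group was not computed. Fasted WT replicate 4 was the lowest for 3 of 5, Cidec, Plin2 and Plin5, and the highest for Hilpda. Fasted WT replicate 5 was the highest for 3 of 5. Without both fasted Mcl1KO replicate 3 and fasted WT replicate 4, a setting chosen after the data were seen, 5 of the 10 genes rose in Mcl1KO and 3 in WT, as with all arrays. The interactions that passed then numbered 3, with Plin2 (adjusted p = 0.0476) and Pnpla2 beside Cidec.

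**Figure D3:**
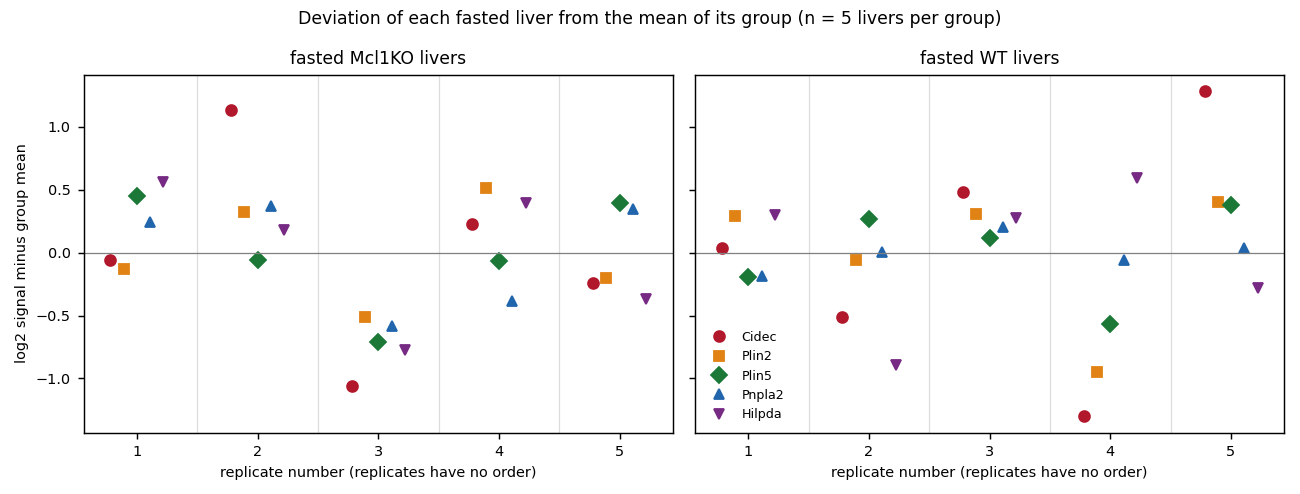
Log2 signal of Cidec, Plin2, Plin5, Pnpla2 and Hilpda in each fasted liver minus the mean of its group (n = 5), with fasted Mcl1KO on the left and fasted WT on the right. All 5 genes fall below the mean in fasted Mcl1KO replicate 3, and Cidec and Plin2 fall farthest in fasted WT replicate 4.

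Other proteins of the droplet surface and of droplet assembly moved less than Cidec. Of 17 such genes 16 were measured, and 4 were higher and 2 lower in fasted than in fed Mcl1KO livers, with a median of 0.15. In that comparison 14.4% of all probe sets passed in either direction. Fitm2, which partitions triglyceride into budding droplets, rose by 0.70 (adjusted p = 0.0141). This no longer passed when fasted Mcl1KO replicate 5 was left out (adjusted p = 0.0563) or with only the compared groups in the fit (adjusted p = 0.0561). Hsd17b13 and Hsd17b11, related dehydrogenases bound to droplets, both rose by 0.69 (adjusted p = 0.000314 and 0.000532), and Spg20, the spartin gene, by 0.45. The droplet hydrolase gene Ldah fell by 0.90 (adjusted p = 0.0011) and Mettl7b by 0.49, a call lost without any one of 5 Mcl1KO livers (adjusted p up to 0.0953). The Mettl7b call was also lost under median centring (adjusted p = 0.0521). Fasting in WT raised 2 of the 16, Spg20 by 0.77 and Hsd17b13 by 0.67, and lowered 0; 6.79% of all probe sets passed there. Neither genotype comparison nor the interaction called any of the 16.

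Genes of neutral lipid hydrolysis other than Pnpla2 fell or did not pass. Of 12 measured, 0 were higher and 5 lower in fasted Mcl1KO than in fed Mcl1KO livers, and 0 higher and 3 lower in fasted WT than in fed WT livers. Of all probe sets, 6.25% were lower with fasting in Mcl1KO and 3.68% in WT. The falling genes were carboxylesterase genes and Aadac, which encode hydrolases of the endoplasmic reticulum. Ces1f fell by 1.43 in Mcl1KO and by 1.27 in WT, Ces3a by 1.31 and 0.78, and Aadac by 1.28 and 0.71. In fasted mice 1.67% of all probe sets were lower in Mcl1KO than in WT livers, and here 3 of the 12 were lower in Mcl1KO. Aadac lay between 7.36 and 8.35 in fasted Mcl1KO and between 8.96 and 9.26 in fasted WT livers, without overlap (log2 difference -1.13, adjusted p = 0.000128). In fed mice Aadac lay between 8.85 and 9.51 in Mcl1KO and between 9.72 and 9.96 in WT, also without overlap. How many of all probe sets did not overlap in that comparison was not counted. The Aadac difference of -0.57 in fed mice did not pass (adjusted p = 0.259). Its interaction of -0.56 did not pass either (adjusted p = 0.281). Ces1g was lower by 0.83 (adjusted p = 0.0112), and Ces3a by 0.50 (adjusted p = 0.0276), a call lost without fasted WT replicate 1 or fasted Mcl1KO replicate 2 or 4. With only the compared groups in the fit, the calls of Ces1g (adjusted p = 0.0632) and Ces3a (adjusted p = 0.127) were both lost. The partners and followers of Pnpla2 passed in no comparison. Abhd5, the activator of Pnpla2, differed by -0.05 with fasting in Mcl1KO (-0.26 to 0.16) and by 0.01 in WT (-0.20 to 0.22). Lipe, the hormone-sensitive lipase gene, differed by -0.52 in Mcl1KO (-1.03 to -0.0035, adjusted p = 0.202), and Mgll, the monoglyceride lipase gene, by 0.10 (-0.30 to 0.51). Pnpla3, a relative of Pnpla2, differed by 0.0008 (-0.30 to 0.30).

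Among 12 regulators of droplet genes 10 were measured. With fasting 2 were higher and 2 lower in Mcl1KO livers, and 2 were higher and 1 lower in WT livers. Of all probe sets, 14.4% passed in either direction in Mcl1KO and 6.79% in WT. Ppargc1a, a coactivator of PPARα, rose by 1.64 in Mcl1KO (adjusted p = 5.01e-05) and by 1.80 in WT (adjusted p = 4e-05). Creb3l3, a liver transcription factor of the fasting response, rose by 0.45 in each. Mlxipl, which encodes the carbohydrate-sensing factor ChREBP, fell by 1.75 in Mcl1KO (adjusted p = 1.58e-08) and by 1.39 in WT (adjusted p = 1.02e-06). The Ppara message was itself lower by 0.72 in fasted than in fed Mcl1KO livers (adjusted p = 0.0283), and by 0.41 in WT without passing. The Mcl1KO call was lost without any one of 6 Mcl1KO livers (adjusted p up to 0.103). It was also lost with trended, robust moderation (adjusted p = 0.0535) and with only the compared groups in the fit (adjusted p = 0.0647). Pparg, which drives Cidec in fatty liver, averaged 0.12 higher with fasting in Mcl1KO (-0.26 to 0.50) and 0.32 lower in WT (-0.70 to 0.06), and passed in neither. None of the 10 passed between genotypes or as an interaction.

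**Figure D4:**
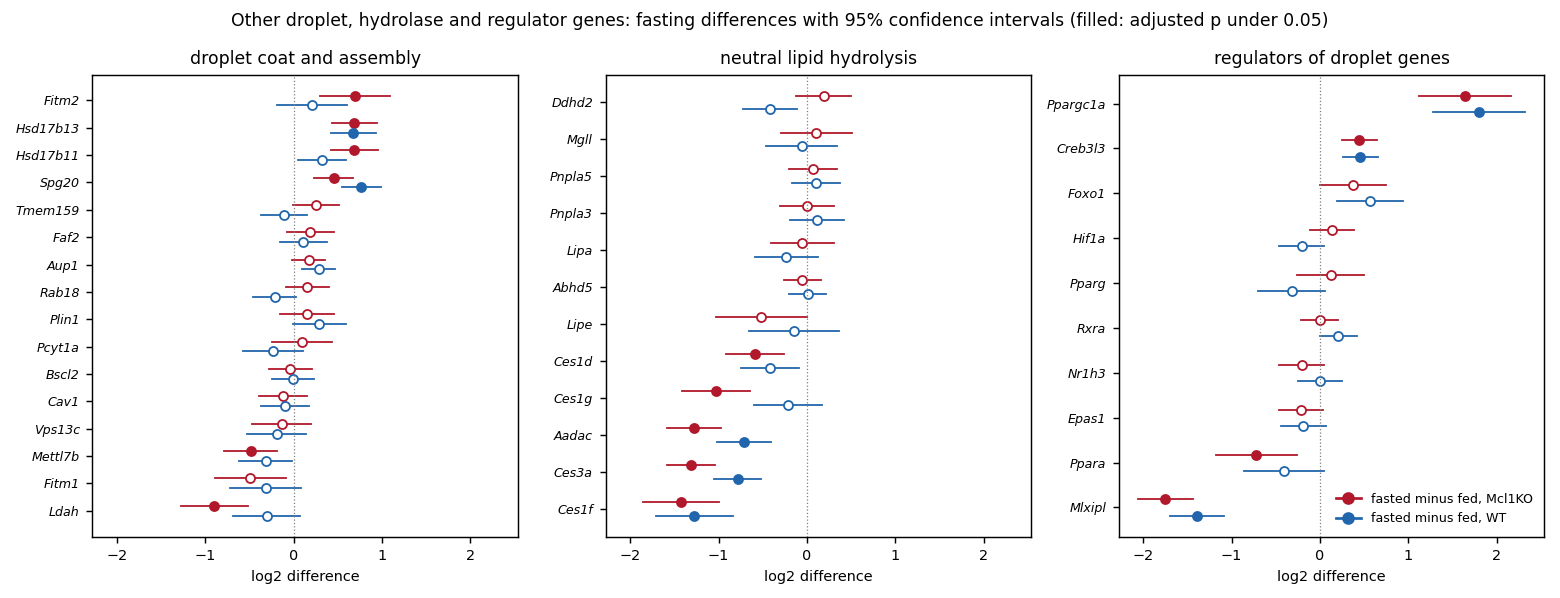
Fasting differences (log2, with 95% confidence intervals) of the other droplet, hydrolase and regulator genes, for Mcl1KO in red and WT in blue; filled points have an adjusted p under 0.05. The hydrolase panel holds Ces1f, Ces3a and Aadac at -1.43 to -0.71 in both genotypes, and Ppargc1a and Mlxipl lie at opposite sides among the regulators.

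Plin1, Cidec and Lipe are also genes of adipocytes, so adipocyte markers were read beside them. Of 8 markers 7 were measured, and 0 passed in any of the 5 comparisons. Adipoq averaged 2.28 in fasted Mcl1KO, 2.26 in fed Mcl1KO, 2.23 in fasted WT and 2.12 in fed WT livers. The group means of Lep ran from 2.27 to 2.36, and all these means were far below the array medians. Summed on the linear scale, the 7 markers ranged from 51.9 to 70.1 in fasted Mcl1KO, 48.8 to 76.3 in fed Mcl1KO, 56.6 to 71.3 in fasted WT and 54.8 to 70.3 in fed WT. The ranges of the 4 groups overlapped. The 7 markers include Plin1 and Lipe themselves. Lipe averaged 4.45 to 4.96 over the groups and the others 2.12 to 2.95, near the floor. The sum thus leans on Lipe and tells little about the number of adipocytes. In the fasted Mcl1KO livers, which had the highest Cidec, Adipoq ran from 1.94 to 2.59. Skeletal muscle markers, 5 of 5 measured, likewise passed in no comparison.

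Kupffer cell markers did move with genotype in fasted mice. Of 8, all measured, 3 were higher in fasted Mcl1KO than in fasted WT livers, as were 3.32% of all probe sets: Vsig4 by 1.22 (adjusted p = 0.000146), C1qa by 0.70 and Clec4f by 0.56. The calls of C1qa and Clec4f were lost without single fasted livers of either genotype (adjusted p up to 0.102). Both were also lost with only the compared groups in the fit (adjusted p = 0.0905 for C1qa and 0.0983 for Clec4f), and C1qa under quantile normalisation (adjusted p = 0.055). The summed level of the 8 ranged from 346 to 628 in fasted Mcl1KO and from 252 to 315 in fasted WT, with no overlap. In fed mice it ranged from 491 to 648 in Mcl1KO and from 449 to 596 in WT. Fasted Mcl1KO replicates 1 to 3, at 375, 369 and 346, thus lay below every fed liver, as did all fasted WT livers, while replicates 4 and 5, at 628 and 564, lay within the range of the fed livers. The part of Kupffer cells in the genotype differences of Cidec, Plin2, Plin5 and Pnpla2 was not tested. Cd9, 1 of 6 measured markers of other myeloid cells, was also higher in fasted Mcl1KO than in fasted WT livers, by 1.13 (adjusted p = 0.00381). Among 7 measured stellate cell markers 1, Hand2, was higher there, by 0.42, and among 7 sinusoidal endothelial markers none passed. With fasting, Cd5l alone of the Kupffer markers passed in Mcl1KO, where its log2 difference was -1.20, and Cd5l, Vsig4 and Clec4f were lower in fasted than in fed WT livers. The interaction of Vsig4 was 1.26 (adjusted p = 0.022), a call lost without fed WT replicate 5, fasted WT replicate 2 or fasted Mcl1KO replicate 5 (adjusted p up to 0.0551). Of the 7 endothelial markers, fasting raised 2 in Mcl1KO, Lyve1 by 2.24 and Oit3 by 0.85, and lowered 0. In WT it raised 1, Lyve1, by 1.79, and lowered 2, with differences of -0.89 for Clec4g and -0.92 for Fcgr2b. Fasting in Mcl1KO also raised 1 of the 6 other myeloid markers, and raised 1 and lowered 1 of the 7 stellate markers. In WT it moved none of these. Of all probe sets, 8.2% were higher and 6.25% lower with fasting in Mcl1KO, and 3.1% higher and 3.68% lower in WT.

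The genes whose profile over the 20 arrays was most like that of Cidec were Nlrp12, Rab30, Cyp4a31, Apoa4 and Insig2. Likeness was measured as the root mean square difference of log2 signal after each probe set was centred on its mean. It ranged from 0.878 for Nlrp12 to 0.964 for Insig2, against a median of 2.02 over 18585 candidate probe sets. Among the 10 genes Plin5 came nearest to Cidec, at rank 13 (1.14), then Pnpla2, at rank 30 (1.27), Plin2, at rank 94 (1.48), and Hilpda, at rank 172 (1.57). The measure follows size as well as shape, since Cidec has so wide a range. The 5 like genes were chosen for this pattern, so their levels are given without a test. Nlrp12, a regulator of inflammatory signalling, averaged 4.94 in fasted Mcl1KO, 2.09 in fed Mcl1KO, 2.92 in fasted WT and 2.10 in fed WT livers. Rab30, a small GTPase of the Golgi, averaged 8.55, 4.89, 6.30 and 5.68 in the same groups. These 2 genes, like Cidec, were far higher in fasted Mcl1KO than in fasted WT livers. Cyp4a31, a fatty acid omega-hydroxylase gene and known PPARα target, differed 9.12-fold with fasting in Mcl1KO and 4.15-fold in WT. Apoa4, an apolipoprotein gene, differed 8.82-fold in Mcl1KO and 7.98-fold in WT, and Insig2, whose protein holds back sterol synthesis, 6.35-fold and 4.84-fold.

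**Figure D5:**
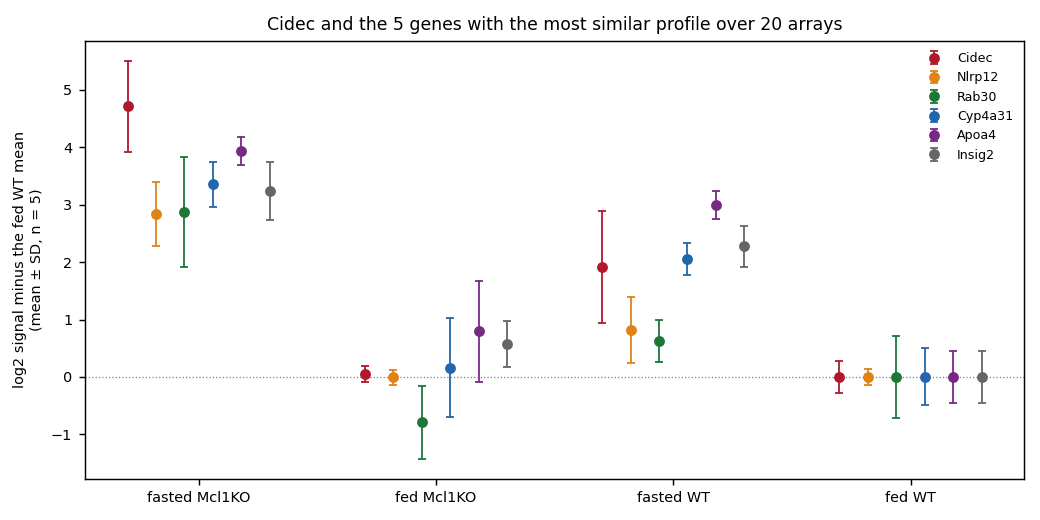
Mean ± SD (n = 5) of Cidec and the 5 genes most like it, as log2 signal minus the fed WT mean, in fasted Mcl1KO, fed Mcl1KO, fasted WT and fed WT livers from left to right. Cidec averages 7.71 in fasted Mcl1KO and 4.91 in fasted WT livers before this subtraction, whereas Apoa4 averages 11.95 and 11.02.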

How the data were processed

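RNA of 20 livers was hybridised to 1 Affymetrix array each, labelled with the GeneChip WT PLUS kit per the labels' protocols. The authors deposited 1 table of log2 signals, for which the submitters' processing notes name RMA, a routine that corrects background, normalises by quantiles and combines probes, and Partek 7.0. The base of the logarithm is not stated; it was taken as log2, since values ran from 1.34 to 12.56. The number of arrays limits the precision. No detection calls, scan dates or batches came with the table. Genes were named through the platform annotation: 19572 of 22206 probe sets had 1 symbol, 2634 had none, and 0 had several.

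The values were fitted with limma 3.58.1 in R 4.3.3, with 1 mean per group over all 20 arrays, moderated variances (eBayes) and no block. In each of 5 comparisons the Benjamini-Hochberg adjustment ran over the whole table, and adjusted p-values under 0.05 were called. Fold changes are the higher over the lower group, and confidence intervals are 95%. The fit was tested on simulated data. Where a symbol had several probe sets, the one with the highest mean was to be used. The members, gene lists and marker lists were chosen with earlier results of these data known. The text names all 10 genes, Mcl1, up to 3 called genes in each direction for every list and comparison, with the activator and lipases Abhd5, Lipe, Mgll and Pnpla3 and the receptor gene Pparg added after their values were seen, the printed markers, and the 5 genes nearest to Cidec (predicted gene models left out). Listed genes without a probe set under their symbol were not analysed here: Acsl3, Ppard, Srebf1, Cfd, Spp1 and Ecm1. Promoter windows came from a RefSeq table of GRCm38.p6. Deviations of same-numbered replicates of the groups compared correlated at -0.14 to 0.17, and those of differently numbered ones at -0.15 to 0.15. In the fed genotype comparison 3 of 5 Mcl1KO livers correlated best with the WT liver of their own number, and 0 did in the other comparisons. With correlations this low, numbers were not used as pairs. Alternatives were quantile normalisation, median centring, trended and robust moderation, group and array weights, bright probe sets only, only the compared groups, a replicate block and each array left out.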

Additional observations from a re-analysis of the deposited data

Results flagged for a closer look

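Of 120 sets of 5 livers (30 genes in 4 groups), 9 held a liver that stood apart from the other 4 by Dixon's test; chance alone marks about 1 in 20. In fed WT replicate 2 Cidec was high, at 3.47, whereas the rest of its group lay at 2.75 to 2.93. The same liver was high for Hsd17b11, at 9.54 against 9.15 to 9.22, and for Rab30, at 6.91 against 5.08 to 5.52. Fasted WT replicate 4 was low for G0s2, at 5.90 against 6.88 to 7.16, for Fitm2, at 5.48 against 5.84 to 5.93, and for Ces1f, at 7.90 against 8.85 to 9.12. Fed Mcl1KO replicate 2 was high for Ppargc1a, at 7.01 against 5.67 to 5.95, and for Apoa4, at 10.3 against 8.17 to 8.67. In fed Mcl1KO replicate 5 Spg20 was high, at 5.35 against 5.13 to 5.18.

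Among the 10 genes, the other listed genes and the markers, the fasting effects of 2 differed between genotypes by limma's interaction. The genes chosen for their likeness to Cidec were not counted here. Cidec rose by 2.74 more in Mcl1KO than in WT livers on the log2 scale. Vsig4, a Kupffer cell marker, had an interaction of 1.26, with a fasting difference of 0.32 in Mcl1KO and -0.94 in WT. Each of these calls was lost in some alternative settings, as given above.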

How the results depend on the processing

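Across 29 alternative settings, the count of the 10 genes that passed stayed at 5 for fasting in Mcl1KO, 3 for fasting in WT and 0 for genotype in fed mice, and lay between 3 and 5 for genotype in fasted mice. No gene-level value that passed changed sign: of 4886 values for 170 gene results, 4773 stayed on the same side of the threshold, 60 lost the call and 53 gained it. Values that did not pass could change sign, as for the fasting differences of G0s2 and Cidea in Mcl1KO. The members that passed as interactions numbered 1 in the reported fit, 2 with median centring, group weights, array weights or bright probe sets only, 3 without both fasted WT replicate 4 and fasted Mcl1KO replicate 3 (a setting chosen after seeing the data), and 0 to 2 with single arrays left out. With trended, robust moderation it was 1, with Pnpla2 (adjusted p = 0.0344) in place of Cidec. Over all probe sets, genotype in fasted mice called 1109, against 399 with only the compared groups and 497 (without fasted Mcl1KO replicate 2) to 1707 (without fasted Mcl1KO replicate 3) with single arrays left out. Genotype in fed mice called 8, against 15 with trended, robust moderation, 20 with group weights, 26 with array weights and 7 to 16 (highest without fed Mcl1KO replicate 4) with single arrays left out. The interaction called 30, against 55 with array weights, 52 with bright probe sets only, 300 without both livers, and 9 to 331 with single arrays left out, the lowest without fasted WT replicate 2 and the highest without fasted Mcl1KO replicate 3. Of these 30, 60.0% were positive, against 48.6% of 35 after quantile normalisation and 71.1% of 38 after median centring. The causes were not tested. The replicate block gave 5, 3, 4, 0 and 1 of the 10 genes for fasting in Mcl1KO, fasting in WT, genotype in fasted mice, genotype in fed mice and the interaction, and changed no call of a member. Replicate numbers share no stated origin, and only in the fed genotype comparison did 1 of 5 pairs correlate above 0.1. The lowest-mean probe set could not be tried, since each gene had 1 probe set, the compared groups alone give no interaction, and bright probe sets only left Cidea out. Signals near the floor, as for Cidea and for Cidec in fed livers, limit what small change could be seen. In fed livers Hilpda, at 3.08 to 4.07, and Plin4, at 3.10 to 3.90, also lay around the array medians of 3.35 to 3.47. How far this limited their fold changes and fed SDs was not tested.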

Other observations

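In both fed groups the livers numbered 1 and 2 were the lowest for G0s2. They read 6.13 and 5.79 in fed Mcl1KO, where the remaining livers lay at 6.97 to 7.39. In fed WT they read 6.52 and 5.72, and the remaining livers lay at 7.42 to 7.53. In fasted Mcl1KO mice, by contrast, replicate 1 was the highest for G0s2, at 7.64, and replicate 5 the lowest, at 5.27. Nothing in the labels ties equal numbers together, and the cause was not tested.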
